A study of Mus musculus with 12 samples.

Results

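The 9 genes described here encode transcription factors and a bridging protein that act together in blood formation: Gata1, Gata2, Klf1, Tal1, Runx1, Lmo2, Nfe2, Gfi1b and Lyl1. They were taken by gene symbol, as 9 of the 54537 genes listed in a table of gene expression from mouse embryonic stem (ES) cells and the embryoid bodies grown from them. The first of 2 cell lines carries the genotype label WT+1343KO-a14 and is referred to as the 1343KO line, and the other is labelled WT. Each line was sampled on day 0, as ES cells in serum with leukaemia inhibitory factor (LIF), a cytokine that holds them undifferentiated, and on days 8 and 16 as floating embryoid bodies without LIF. Each of the 6 groups had 2 libraries of poly(A) RNA, 12 in all. In the series as a whole, long noncoding RNA genes were knocked out, and its title ties the small nucleolar RNA SNORA73 to pluripotency exit. What the number and the leading WT+ of that label mean, the labels leave unsaid. All 6 libraries of the 1343KO line carry the same label, so no second knockout line or clone was compared.

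Blood first forms in the embryo from mesoderm of the yolk sac, where haemangioblast-like progenitors give rise to endothelium and to primitive red cells. TAL1 and its close relative LYL1 are basic helix-loop-helix proteins that bind E-box DNA with E proteins such as TCF3 and TCF12, and LMO2 and LDB1 bridge them to GATA factors in one complex. GATA2 serves progenitors, and GATA1 replaces it on many sites as red cells and megakaryocytes mature. KLF1 binds CACC boxes of globin and other red cell genes, NFE2 pairs with small Maf proteins at globin control regions and in platelet formation, and GFI1B is a repressor that works with KDM1A and RCOR1. RUNX1, with its partner CBFB, is needed for definitive blood to emerge from endothelium. Embryoid bodies pass through a primitive red cell stage and make macrophages later.

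Values are FPKM as deposited, a level scaled to transcript length and to the fragments of the library. Differences were taken between values of log2(FPKM + 1), so those of low genes are understated, with the standard error (SE) from limma fitted to all genes and libraries. A difference passed where its p-value, adjusted by Benjamini-Hochberg over the 16289 genes tested, was under 0.05. Recovered depth was about 4805000 to 8045000 fragments per library, and 12909 to 14069 genes per library reached 1 FPKM. Snhg3, the host gene of SNORA73 in mouse, was listed at 0 to 1.57 FPKM in the 6 libraries of the 1343KO line, against 8.31 to 61.1 FPKM in the 6 WT libraries. The cell type label reads embryonic stem cells at every day. Pou5f1, a defining ES cell factor, was at 419 and 397 FPKM in the 1343KO line at day 16, against 23.6 and 18.6 FPKM in WT. The summed level of 10 ES cell identity genes was 2611 to 2616 FPKM in the 1343KO libraries of day 16, against 138 to 152 FPKM in those of WT, so the label was met by these markers least in the WT embryoid bodies.

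Promoters are printed for the matched factors that rose in WT by day 8 and fell by day 16, to show the letters in front of their starts. RefSeq promoter sequences of build GRCm38.p6 were matched by symbol for 7 of the 9 genes, in 10 windows of 250 bases before a transcription start; Lmo2 and Nfe2 were not matched. Each is written 5′ to 3′ on the strand of the gene, with GATA and CACC motif letters in capitals. The GATA motif was searched as GATAA or GATAG, each after an A or a T. The CACC motif was searched as CCNCNCCC, the E-box as CANNTG and the RUNX motif as TGTGGT. All were searched on both strands. Overlapping matches of one motif were counted separately. The windows printed are those of Gata1 (chrX:7967911-7968160, minus strand), Klf1 (chr8:84901732-84901981, plus strand), Gfi1b (chr2:28621983-28622232, minus strand) and the upstream start of Tal1 (chr4:115056176-115056425, plus strand).
Gata1: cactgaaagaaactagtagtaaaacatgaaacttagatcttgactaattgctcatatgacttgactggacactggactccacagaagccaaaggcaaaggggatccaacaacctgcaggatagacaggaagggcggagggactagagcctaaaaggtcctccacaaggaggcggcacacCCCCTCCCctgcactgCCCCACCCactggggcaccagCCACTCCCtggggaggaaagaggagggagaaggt
Klf1: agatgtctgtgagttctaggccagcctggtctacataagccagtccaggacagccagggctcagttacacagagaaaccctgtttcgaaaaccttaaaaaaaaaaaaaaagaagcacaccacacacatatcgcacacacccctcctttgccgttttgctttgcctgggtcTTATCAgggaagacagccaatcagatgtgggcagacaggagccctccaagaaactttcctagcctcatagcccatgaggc
Gfi1b: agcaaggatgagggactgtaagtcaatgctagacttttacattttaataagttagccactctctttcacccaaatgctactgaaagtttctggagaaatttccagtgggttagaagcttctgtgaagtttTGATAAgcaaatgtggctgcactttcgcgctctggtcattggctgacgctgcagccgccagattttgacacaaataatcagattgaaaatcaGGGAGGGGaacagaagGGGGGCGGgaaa
Tal1: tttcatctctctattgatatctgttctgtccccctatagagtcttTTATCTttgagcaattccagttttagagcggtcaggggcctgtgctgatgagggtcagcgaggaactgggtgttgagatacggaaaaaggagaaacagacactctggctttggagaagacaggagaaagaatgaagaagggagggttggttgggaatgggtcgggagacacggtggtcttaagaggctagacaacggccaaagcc
In the Gata1 window 3 CACC matches begin 71, 55 and 34 bases before the start and no GATA letters of those searched occur. The Klf1 window holds TTATCA, the reverse complement of TGATAA, beginning 80 bases before the start. In the Gfi1b window TGATAA begins 120 bases before the start and 2 CACC matches begin 28 and 12 bases before it. The Tal1 window holds TTATCT, the reverse complement of AGATAA, beginning 205 bases before the start. Of the 10 windows, 3 held a GATA match, 8 a CACC match, 5 an E-box and 1 the RUNX letters. Over 32851 RefSeq promoter windows of the same length, those shares were 26.5% for GATA, 45.9% for CACC, 66.2% for the E-box and 14% for RUNX. A match describes letters, not binding.

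**Figure D1:**
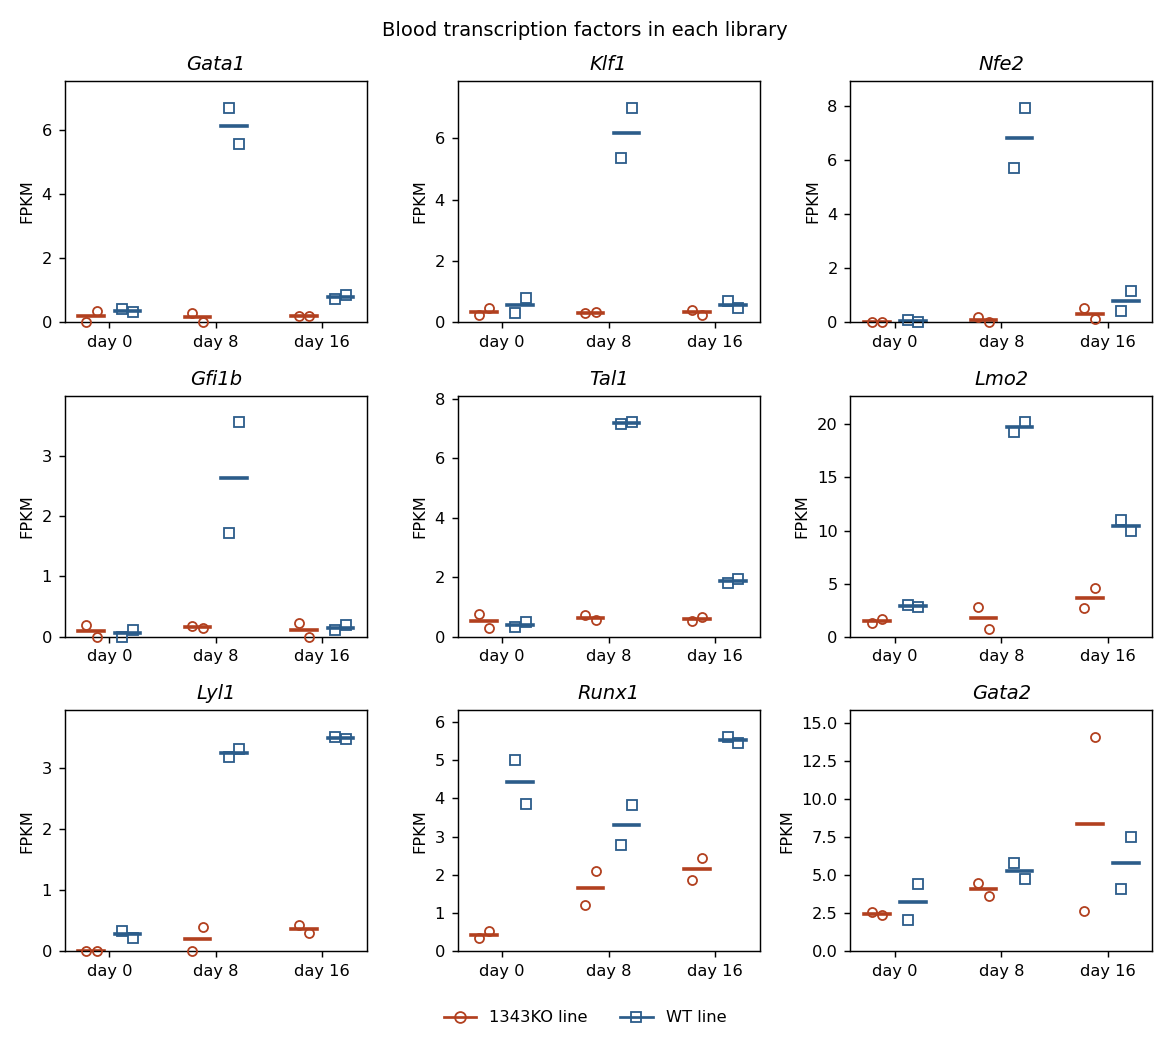
Level of each factor in FPKM (vertical axes, linear, each from 0) by day (horizontal axes); open circles are 1343KO libraries, open squares WT libraries, and bars the mean of 2 libraries. Gata1, Klf1, Nfe2 and Gfi1b are high in the WT day 8 libraries and low elsewhere, and Tal1 is highest in them. At day 16 Tal1, Lyl1, Lmo2 and Runx1 in WT are above the 1343KO line by the test.

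At day 8 most of the blood factors were far lower in the 1343KO line than in WT, with Gata2 and Runx1 apart from the rest. Of the 9 factors 8 were lower in the 1343KO line and 0 higher by the test, against 19.6% lower and 23.3% higher among all genes tested, 42.8% in all. Both 1343KO libraries lay below both WT libraries for all 9, which held for 32.5% of all genes tested. All 9 had passed the filter of at least 1 FPKM in at least 2 libraries. Gata1, Klf1 and Gfi1b did so by the 2 WT day 8 libraries alone, and Nfe2 by those and 1 WT day 16 library. Tal1 and Lyl1 did so by WT libraries of days 8 and 16 alone. Counts of these genes thus say little beyond their own values. In bulk RNA, fewer cells of a type and less RNA per cell cannot be told apart.

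Within the bridged complex, Tal1 (ENSMUSG00000028717, chr4:115056426-115071755) was at 0.727 and 0.551 FPKM in the 1343KO libraries of day 8, against 7.14 and 7.20 FPKM in those of WT. The WT libraries were nearly equal and far above the others (log2 difference -2.32 ± 0.20 (SE), limma adjusted p = 2.18e-05). Lmo2 (ENSMUSG00000032698, chr2:103957986-103981878), the bridge itself, was at 2.79 and 0.735 FPKM in the 1343KO line, against 19.3 and 20.2 FPKM in WT, the highest WT level of the 9 at that day. Its difference was the widest of the 9 at day 8 on the log2(FPKM + 1) scale (-3.01 ± 0.33, limma adjusted p = 8.88e-05), though with a pseudocount of 0.1 it was -3.67 and those of Nfe2 (-5.35), Gata1 (-4.96), Klf1 (-3.95) and Lyl1 (-3.92) were wider. Its 1343KO libraries were the less alike pair. Lyl1 (ENSMUSG00000034041, chr8:84701457-84704715) was listed at 0 and at 0.391 FPKM in the 1343KO line and at 3.19 and 3.32 FPKM in WT (-1.85 ± 0.20, limma adjusted p = 9.06e-05). Gata1 (ENSMUSG00000031162, chrX:7959260-7978071) was at 0.295 FPKM and listed at 0 in the 1343KO libraries, and at 6.68 and 5.56 FPKM in the WT libraries (-2.64 ± 0.22, limma adjusted p = 1.82e-05). All 4 of these genes thus separated the lines without overlap.

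The factors of red cell and megakaryocyte maturation were arranged alike. Klf1 (ENSMUSG00000054191, chr8:84901928-84905291) was at 0.287 and 0.318 FPKM in the 1343KO line and at 5.35 and 7.0 FPKM in WT (-2.45 ± 0.23, limma adjusted p = 3.43e-05). Nfe2 (ENSMUSG00000058794, chr15:103248212-103258403) was at 0.180 FPKM and listed at 0 in the 1343KO line and at 5.73 and 7.95 FPKM in WT (-2.84 ± 0.27, limma adjusted p = 3.49e-05). Gfi1b (ENSMUSG00000026815, chr2:28609450-28621982) was the lowest of the 9 in WT at day 8, with 0.171 and 0.141 FPKM in the 1343KO line and 1.71 and 3.55 FPKM in WT (-1.60 ± 0.26, limma adjusted p = 0.000996). Its WT libraries were well apart from each other and both above the 1343KO line. On recovered depth, the WT day 8 libraries held about 60 to 86 fragments of Gata1, 54 to 59 of Klf1, 73 to 84 of Nfe2 and 21 to 36 of Gfi1b. The 1343KO libraries of all days held at most about 4, 3, 5 and 2 fragments of these genes, a depth at which changes within that line are hardly detectable.

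Runx1 and Gata2 stood apart from the other 7 at day 8. Runx1 (ENSMUSG00000022952, chr16:92601466-92826149) was at 1.21 and 2.1 FPKM in the 1343KO line and at 2.79 and 3.81 FPKM in WT. Its difference was the narrowest that passed (-0.71 ± 0.23, limma adjusted p = 0.0329), and the call ended without 1343KO replicate 1 (adjusted p = 0.196), without WT replicate 2 (0.185), on the 4 day 8 libraries alone (0.125) and with no filter (0.0656). Gata2 (ENSMUSG00000015053, chr6:88193891-88207032) was at 4.52 and 3.67 FPKM in the 1343KO line, against 5.78 and 4.74 FPKM in WT, and did not pass (-0.30 ± 0.57, limma adjusted p = 0.712). The SE of Gata2 was the largest of the 9, and its libraries were the most spread at day 16.

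At day 16 the factors that passed were Lyl1, Lmo2 and Tal1 of the bridged complex, and Runx1. Of the 9 factors 4 were lower in the 1343KO line and 0 higher, against 24.1% lower and 28.5% higher among all genes, 52.6% in all. Tal1 and Lyl1 passed the filter by WT libraries of days 8 and 16 alone. Their part in this count says little beyond their values. The groups did not overlap, with the 1343KO line below, for 6 of the 9 and for 34.7% of all genes tested. Lyl1 had the widest difference, at 0.426 and 0.304 FPKM in the 1343KO line and 3.51 and 3.47 FPKM in WT (-1.72 ± 0.20, limma adjusted p = 8.7e-05). Lmo2 was at 2.74 and 4.62 FPKM in the 1343KO line and 11 and 9.91 FPKM in WT (-1.32 ± 0.33, limma adjusted p = 0.00782), and this call ended without 1343KO replicate 1 (adjusted p = 0.0631). For both genes each 1343KO library lay below each WT library. Runx1 was at 1.87 and 2.43 FPKM in the 1343KO line and 5.60 and 5.44 FPKM in WT (-1.06 ± 0.23, limma adjusted p = 0.00369). Tal1 was at 0.532 and 0.652 FPKM in the 1343KO line and 1.80 and 1.95 FPKM in WT (-0.85 ± 0.20, limma adjusted p = 0.00565).

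The maturation factors did not pass at day 16, when they were low in both lines. Gata1, at 0.200 and 0.190 FPKM in the 1343KO line and 0.710 and 0.856 FPKM in WT, came nearest (-0.58 ± 0.22, limma adjusted p = 0.0536), and it passed under 6 of 18 alternatives with an adjusted p of 0.0213 to 0.05. Nfe2 was at 0.508 and 0.116 FPKM in the 1343KO line, against 0.409 and 1.14 FPKM in WT. Klf1 was at 0.390 and 0.247 FPKM in the 1343KO line, against 0.698 and 0.447 FPKM in WT. Gfi1b was at 0.231 FPKM and listed at 0 in the 1343KO line, against 0.103 and 0.199 FPKM in WT, and the 2 lines overlapped for it and for Nfe2. Gata2 was at 14.1 FPKM in replicate 2 of the 1343KO line, its highest value of the 12 libraries, and at 2.66 FPKM in replicate 1. The WT libraries lay between them, at 4.13 and 7.54 FPKM (0.17 ± 0.57, limma adjusted p = 0.832). A gap between these 2 1343KO libraries as wide as that of Gata2, 2.04 on the log2 scale, occurred in 0.663% of genes tested, 108 in all. Gata3, a GATA factor of trophoblast and other tissues, was at 2.44 FPKM in replicate 1 and 5.82 FPKM in replicate 2 of the 1343KO line. Without 1343KO replicate 1 the Gata2 difference passed (adjusted p = 0.0381), so 1 library decides it.

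In ES cells, before LIF was withdrawn, Runx1 was the one factor of the 9 that passed. It was at 0.338 and 0.524 FPKM in the 1343KO line and at 5.0 and 3.84 FPKM in WT (-1.92 ± 0.23, limma adjusted p = 0.00289), where 2.12% of all genes tested were lower and 1.59% higher, 3.71% in all. On the 4 day 0 libraries alone Runx1 was at an adjusted p of 0.159, a setting in which 0 genes of the whole table passed by limma and 2489 had an unadjusted p under 0.05. The 1343KO libraries lay below the WT ones without overlap for Runx1, Lmo2 and Lyl1, 3 of the 9, and for 22.2% of all genes tested. Lmo2 was at 1.32 and 1.64 FPKM in the 1343KO line and 2.96 and 2.83 FPKM in WT, and did not pass (-0.65 ± 0.33, limma adjusted p = 0.362). Lyl1 was listed at 0 in both 1343KO libraries and at 0.337 and 0.217 FPKM in WT. Of the other 6, Gata1, Klf1, Tal1, Nfe2 and Gfi1b were between 0 and 0.795 FPKM in all 4 libraries. Gata2 was at 2.57 and 2.37 FPKM in the 1343KO line and 2.06 and 4.42 FPKM in WT.

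**Figure D2:**
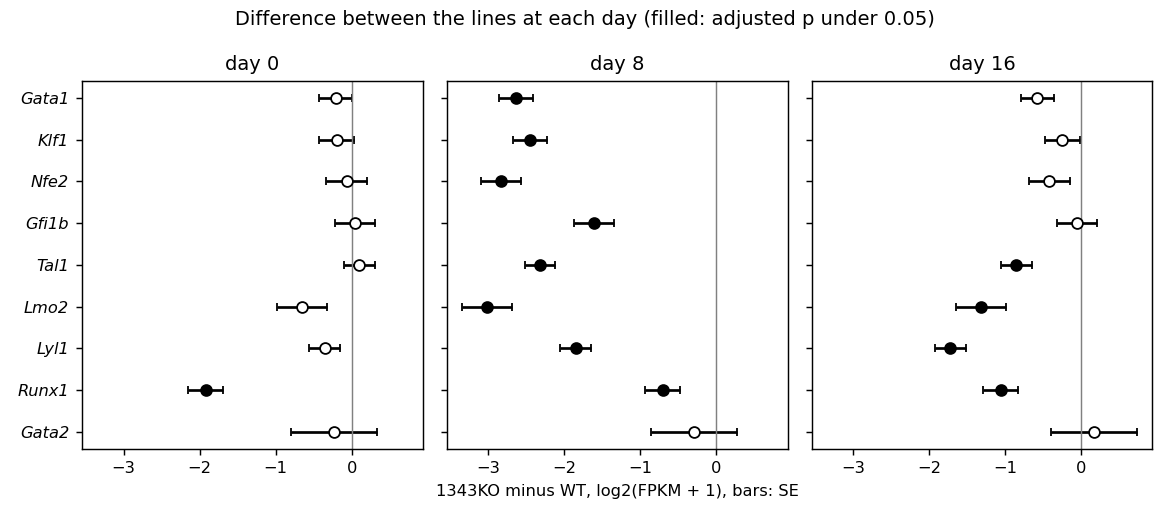
Difference between the lines at each day for the 9 factors, 1343KO minus WT on the log2(FPKM + 1) scale (horizontal axes), with SE as bars; filled points passed at an adjusted p under 0.05. Of the 9 factors, 1 passed at day 0, 8 at day 8 and 4 at day 16, all below 0.

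Klf1 and Lyl1 lie 197213 bases apart on chromosome 8, whose median difference between the lines was below those of the other chromosomes at each day. Over 214 chromosome 8 genes averaging 20 FPKM or more, the median difference at day 0 was -0.42, while the medians of the other 19 chromosomes lay between -0.03 and 0.03. At day 8 the chromosome 8 median was -0.16, with 0.03 to 0.34 elsewhere. By day 16 it was 0.06, with 0.18 to 0.50 elsewhere. The part of this shift in the values of Klf1 and Lyl1 was not tested. Lyl1 also lies within Nfix, a gene on the other strand that was at 0.0929 and 0.231 FPKM in the 1343KO line at day 16, against 4.91 and 5.86 FPKM in WT. Whether counting used strand is not given in the sources used here, so reads of Lyl1 and Nfix cannot be told apart where they overlap. At day 8 Nfix was at 0.161 and 0.177 FPKM in the 1343KO line and 0.728 and 0.555 FPKM in WT, below Lyl1 in WT. Lmo2 and Runx1 also overlap genes on the other strand, which were listed at no more than 0.487 FPKM in any library.

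Over embryoid body culture Gata1, Klf1, Nfe2, Gfi1b, Tal1 and Lmo2 had their highest WT mean at day 8, while Lyl1, Gata2 and Runx1 had theirs at day 16. From day 0 to day 8, 7 of the 9 rose in WT and 0 fell, while 26.8% of all genes rose and 24.5% fell, 51.3% in all. Gata1, Klf1 and Gfi1b passed the filter by the 2 WT day 8 libraries alone, and Nfe2 by those and 1 WT day 16 library. Tal1 and Lyl1 passed it by WT libraries of days 8 and 16 alone. The filter thus favoured a rise in these genes, and the count says little beyond their values. Nfe2 rose most on the log2 scale (2.89 ± 0.27, limma adjusted p = 1.78e-05), being listed at 0 in 1 of the WT day 0 libraries and at 0.0969 FPKM in the other. Tal1 (2.54 ± 0.20), Lmo2 (2.41 ± 0.33) and Gata1 (2.40 ± 0.22) followed on this scale, with limma adjusted p of 6.66e-06, 0.000231 and 1.89e-05. That order depends on the pseudocount, since with 0.1 Gfi1b (4.12) came next after Nfe2 (5.61), and Lmo2 (2.73) was behind all the others that rose. Klf1 rose by 2.22 ± 0.23, Lyl1 by 1.74 ± 0.20 and Gfi1b by 1.73 ± 0.26. The members that did not pass were Gata2 (0.62 ± 0.57, limma adjusted p = 0.395), already present in ES cells, and Runx1 (-0.34 ± 0.23, limma adjusted p = 0.255).

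From day 8 to day 16 Tal1 and the maturation factors fell again in WT, and the other 4 did not pass. Of the 9, 5 fell and 0 rose, against 13.5% of all genes that fell and 14.1% that rose, 27.6% in all. A high WT day 8 level is what let Gata1, Klf1, Gfi1b and, but for 1 library, Nfe2 pass the filter, so this count says little beyond their values. They were Klf1 (-2.19 ± 0.23), Nfe2 (-2.16 ± 0.27), Gata1 (-1.99 ± 0.22), Gfi1b (-1.61 ± 0.26) and Tal1 (-1.51 ± 0.20), with limma adjusted p of 0.00015 to 0.0018. The call of Gfi1b ended on the 4 libraries of these groups alone (adjusted p = 0.0508). Lmo2 had a difference of -0.86 ± 0.33 that did not pass (limma adjusted p = 0.0853). Lyl1 was at 3.51 and 3.47 FPKM at day 16, against 3.19 and 3.32 FPKM at day 8 (0.08 ± 0.20, limma adjusted p = 0.831), and Runx1 had 0.61 ± 0.23 (limma adjusted p = 0.0799). Whether Tal1 differs from its complex partners Lmo2 and Lyl1 in this change was not tested.

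In the 1343KO line Runx1 was the only member that passed. It rose at day 8 against day 0 (0.87 ± 0.23, limma adjusted p = 0.0238), where 15.0% of all genes rose and 8.51% fell, 23.5% in all, and this call ended without 1343KO day 0 replicate 1 (adjusted p = 0.106), day 0 replicate 2 (0.0591) or day 8 replicate 2 (0.146), on the 4 libraries alone (0.105) and with no filter (0.0504). At day 16 against day 0 Runx1 was higher by 1.14 ± 0.23 (limma adjusted p = 0.00634), against 18.2% of all genes that rose and 26.8% called. Between days 8 and 16 none of the 9 passed by limma in the 1343KO line, where 0.804% of all genes did, and Lmo2 alone had an unadjusted p under 0.05 (0.0308, log2 difference 0.84 ± 0.33). Lmo2 at day 16 against day 0 had 0.89 ± 0.33 (limma adjusted p = 0.0768) and Gata2 1.1 ± 0.57 (0.188); Lmo2 passed without 1343KO day 8 replicate 1 (0.0159) or 2 (0.0153), and Gata2 without 1343KO day 16 replicate 1 (0.00868). Gata1, Klf1, Nfe2, Gfi1b, Tal1 and Lyl1 stayed at or under 0.766 FPKM in all 6 libraries of this line.

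**Figure D3:**
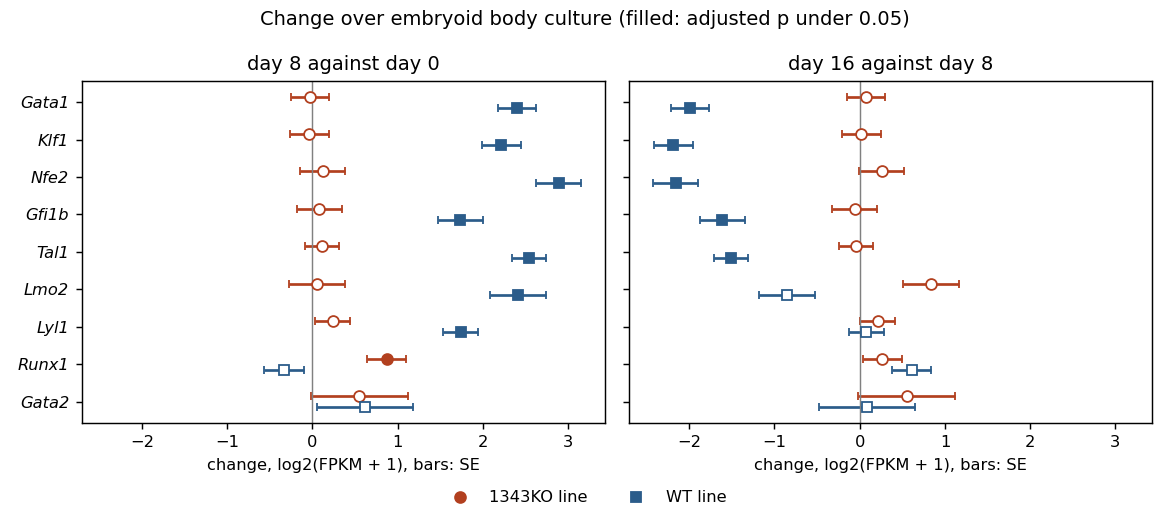
Change of the 9 factors within each line on the log2(FPKM + 1) scale (horizontal axes), day 8 against day 0 on the left and day 16 against day 8 on the right; circles are the 1343KO line, squares WT, bars SE, and filled points passed at an adjusted p under 0.05. In WT 7 factors rose by day 8 and 5 fell by day 16, while in the 1343KO line Runx1 alone passed, at day 8.

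The changes of the lines were set against each other directly. From day 0 to day 8 the change differed between the 1343KO line and WT for 8 of the 9 factors, 7 of them with a negative difference (1343KO minus WT), where 28.3% of all genes were called and 12.7% in that direction. Runx1 was the exception, with a positive difference, and Gata2 did not pass (-0.06 ± 0.80, limma adjusted p = 0.964). From day 8 to day 16 the change differed for 6 of the 9, all with a positive difference (1343KO minus WT), against 8.5% of all genes called in that direction and 16.7% in either. Of these 6, the 5 other than Lmo2 passed with a fall in WT, and none passed in the 1343KO line. Those 5 were at means of only 0.0901 to 0.639 FPKM in the 1343KO line at day 8, where a fall could hardly be measured. Gata1, Klf1 and Gfi1b were tested through their WT day 8 libraries alone. Nfe2, Tal1 and Lyl1 were tested through WT libraries of days 8 and 16 alone. Both counts thus say little beyond the values of these genes.

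The order of levels across the 6 groups differed between the factors, and not every factor had one. Gata1 was highest in WT at day 8 (mean 6.12 FPKM), then in WT at day 16 (0.783), and the other 4 groups had means of 0.147 to 0.350. Of these, WT at day 0 lay above the 1343KO groups of days 8 and 16 without overlap, but on only about 5 and 3 fragments. Klf1 was at 6.18 FPKM in WT at day 8 and Nfe2 at 6.84, each with its 5 other groups overlapping in part and at means of at most 0.572 and 0.773 FPKM. Tal1 was at 7.17 FPKM in WT at day 8 and next at 1.87 FPKM in WT at day 16, and its remaining groups had means of 0.409 to 0.639 FPKM. Among these the 1343KO groups overlapped with each other, and WT at day 0 lay below those of days 8 and 16. Lmo2 kept a graded order, with WT at day 8 (19.7 FPKM) and day 16 (10.4) first, then the 1343KO line at day 16 (3.68), WT at day 0 (2.90), and the 1343KO line at days 8 and 0 (1.76 and 1.48). In that order the first 2 groups were clear of the rest, the 1343KO group of day 16 overlapped with WT at day 0, and the last 2 groups overlapped with each other. Lyl1 had WT at day 16 (3.49 FPKM) just before WT at day 8 (3.26), with no library of the other groups above 0.426. Runx1 was led by WT at day 16 (5.52 FPKM), then WT at day 0 (4.42) and day 8 (3.30), then the 1343KO line at day 16 (2.15), day 8 (1.65) and day 0 (0.431), and the groups of WT at all 3 days stood above all 1343KO libraries. Gata2 had no order beyond its spread, since every neighbouring pair of groups but 1343KO and WT at day 8 overlapped. Gfi1b was above 0.231 FPKM only in WT at day 8.

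Partners of these factors were called in both directions. Of 17 complex partners, E proteins, LIM-binding, corepressor, small Maf and core-binding genes, 8 were lower and 3 higher in the 1343KO line at day 8 and 6 did not pass, against 19.6% lower and 23.3% higher among all genes, with a median log2 difference of -0.08, against 0.06 for all genes tested. Ldb1, the dimerising partner of LMO2, was at 59.2 and 58.3 FPKM in the 1343KO line and 54.5 and 53.2 FPKM in WT, and did not pass (0.12 ± 0.08, limma adjusted p = 0.254; -0.073 with TPM scaling). The E protein gene Tcf12 (-0.87 ± 0.13), the LDB1-stabilising Ssbp2 (-1.58 ± 0.25), the corepressor gene Rcor1 (-0.92 ± 0.10) and Cbfb (-0.62 ± 0.10) were lower in the 1343KO line, with limma adjusted p of 8.05e-05 to 0.00117. They were still measured in both lines: Cbfb was at 32.5 and 30.0 FPKM in the 1343KO line and 49.5 and 47.6 FPKM in WT, and Tcf12 at 13.9 and 12.4 FPKM in the 1343KO line and 25.1 and 24.7 FPKM in WT. At day 16, 7 partners were higher and 5 lower of 17, against 28.5% higher and 24.1% lower among all genes, with a median of 0.22 against 0.07 for all genes tested, among them Tcf3 (0.72 ± 0.09) and Kdm1a (0.80 ± 0.10) higher and Rcor1 (-0.64 ± 0.10) lower. At day 0, 2 of 17 were lower and 0 higher, against 2.12% and 1.59% of all genes. Cbfb was one (-0.54 ± 0.10, limma adjusted p = 0.0266). It lies on chromosome 8, with its median of -0.42 at day 0, and the part of that shift in its value was not tested. The call was lost without 1343KO replicate 1 (0.0542) or 2 (0.148), without WT replicate 1 (0.134), and on the day 0 libraries alone (0.24).

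Relatives from the same families were called in both directions too. Of 16 tested GATA, KLF, TAL, LMO and similar relatives, 5 were lower and 3 higher in the 1343KO line at day 8, with a median of 0.01, where 42.8% of all genes were called. The 3 higher were Klf2 (3.62 ± 0.11), Klf5 (1.67 ± 0.10) and Klf4 (1.63 ± 0.15), which ES cells express, with Klf2 at 101 and 95.9 FPKM in the 1343KO line and 6.59 and 7.61 FPKM in WT. Gata4, a factor of heart and extraembryonic endoderm, was lower in the 1343KO line at day 8 (-2.30 ± 0.18) and already at day 0, at 3.25 and 2.04 FPKM against 19.4 and 23.8 FPKM in WT (-2.64 ± 0.18, limma adjusted p = 0.000108). Gata6, another endoderm factor, was lower at day 0 as well, at 1.58 and 4.38 FPKM against 18.8 and 16.1 FPKM in WT (-2.31 ± 0.31, limma adjusted p = 0.0052). On the day 0 libraries alone the adjusted p was 0.159 for Gata4 and 0.217 for Gata6. Both moved with Runx1 at day 0, and their part in its difference was not tested. At day 16, 4 relatives were higher and 6 lower (52.6% of all genes were called), with a median of -0.03, including Klf2 (3.24 ± 0.11) higher and the LMO gene Lmo4 (-1.39 ± 0.10) lower.

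The red cell genes that GATA1, KLF1 and their partners act on had the day 8 pattern of the factors. Of 27 tested erythroid target genes 18 were lower in the 1343KO line at day 8 and 1, Rhd, higher, against 19.6% lower and 23.3% higher among all genes, with a median of -1.40 against 0.06 for all genes tested. Hbb-bh1, the embryonic beta-like globin, was at 3.25 and 1.22 FPKM in the 1343KO line and 760 and 844 FPKM in WT (-8.03 ± 0.41, limma adjusted p = 1.04e-06). Its alpha-like counterpart Hba-x was at 1.18 and 0.774 FPKM in the 1343KO line and 257 and 290 FPKM in WT (-7.12 ± 0.36, limma adjusted p = 8.32e-07). Globin genes have close copies, between which reads can be split. The summed level of the 31 erythroid genes in the table was 61.1 to 66.0 FPKM in the 1343KO line at day 8 and 1355 to 1487 FPKM in WT.

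Over time in WT, 19 erythroid genes rose and 2 fell by day 8 (median 1.38, all genes 0.00), where 26.8% of all genes rose and 24.5% fell. Between days 8 and 16, 1 rose and 16 fell (median -1.04), where 14.1% of all genes rose and 13.5% fell. Hba-x (6.81 ± 0.36) and Hbb-bh1 (7.50 ± 0.41) rose by day 8, and by day 16 fell by 5.56 ± 0.36 and 6.83 ± 0.41. In the 1343KO line 2 rose and 1 fell by day 8 (median -0.06), where 23.5% of all genes were called, and between days 8 and 16 Hba-x was the 1 gene of the list that passed. It was at 9.51 and 8.03 FPKM at day 16, against 1.18 and 0.774 FPKM at day 8 (2.31 ± 0.36, limma adjusted p = 0.0225), a call that ended without any 1 of these 4 libraries (adjusted p = 0.0813 to 0.172), on them alone (0.219) and with no filter (0.0595). At day 16 the 1343KO line and WT did not differ by the test for Hba-x (0.75 ± 0.36, limma adjusted p = 0.108; 0.0129 without WT replicate 2) or Hbb-bh1 (0.83 ± 0.41, 0.122; 0.0251 without 1343KO replicate 1). Other globin genes lay lower in the 1343KO line at day 16. Hba-a1 was at 1.98 and 0.925 FPKM there, against 21.9 and 29.8 FPKM in WT. Hba-a2 was at 3.01 and 0.279 FPKM, against 20.5 and 30.8 FPKM in WT. Of the 27 erythroid genes at day 16, 8 were lower and 3 higher in the 1343KO line (median 0.10), where 52.6% of all genes were called. At day 0, 0 of the 27 passed by limma, and 2 had an unadjusted p under 0.05.

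Upstream of the factors, 13 mesoderm and haemangioblast regulators were tested, of which 8 were lower and 2 higher in the 1343KO line at day 8 (median -1.50), where 19.6% of all genes were lower and 23.3% higher. Kdr, the VEGF receptor that marks haemangioblasts, was at 1.49 and 1.12 FPKM in the 1343KO line and 20.2 and 17.9 FPKM in WT (-3.12 ± 0.21, limma adjusted p = 5.35e-06). Bmp4 (-2.45 ± 0.19), a ventral mesoderm signal, Erg (-2.97 ± 0.23), an ETS factor of blood and endothelium, and Cdx2 (-2.51 ± 0.28), a regulator of posterior mesoderm and Hox genes, were lower as well. The 2 higher genes were T and Eomes, factors of the primitive streak. In the 1343KO line they rose by day 8, T to 4.67 and 5.94 FPKM, against 0.370 and 0.219 FPKM at day 0 (2.28 ± 0.20), and Eomes by 1.41 ± 0.23, a call that ended on these 4 libraries alone (adjusted p = 0.0586). Among 8 tested blood growth factor and receptor genes 4 were lower and 0 higher in the 1343KO line at day 8 (median -0.57; 42.8% of all genes were called). Stat5b (-1.93 ± 0.18), Kitl (-1.86 ± 0.18) and Jak2 (-1.12 ± 0.18), which carry stem cell factor and erythropoietin signals, were among the 4. Kitl rose in the 1343KO line by day 8 (1.64 ± 0.18), as in WT (3.80 ± 0.18).

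Markers of the other lineages that use these factors are to be read against the shares of all genes, 19.6% lower and 23.3% higher at day 8, and 24.1% lower and 28.5% higher at day 16. Of 15 endothelial markers 11 were lower and 1 higher in the 1343KO line at day 8 (median -1.68), and 11 lower and 0 higher at day 16 (median -1.51). Cdh5, the endothelial cadherin, was at 1.54 and 1.70 FPKM in the 1343KO line at day 8 and 20.2 and 18.9 FPKM in WT (-2.97 ± 0.17, limma adjusted p = 1.61e-06), followed by the receptors Tie1 (-3.09 ± 0.20) and Tek (-2.46 ± 0.17). Endothelium itself expresses Tal1, Lyl1, Lmo2 and Gata2, and in these libraries the summed endothelial level was 107 to 110 FPKM in the 1343KO line at day 16 and 243 to 251 FPKM in WT. Of 15 macrophage markers 4 were lower and 1 higher at day 8 (median -0.27), and all 15 were lower in the 1343KO line at day 16 (median -4.24). All 15 reached 1 FPKM in both WT day 16 libraries, against 2 to 6 of them in each other library. The filter thus favoured this direction, and the count says little beyond their values. Their summed level was 20.8 to 22.8 FPKM in the 1343KO line at day 16, against 434 to 455 FPKM in WT. Csf1r, the macrophage growth factor receptor, was at 2.11 and 1.46 FPKM in the 1343KO line and 29.7 and 26.7 FPKM in WT (-3.40 ± 0.19, limma adjusted p = 6.99e-07). Macrophages express Runx1, Lyl1 and Lmo2. The part of endothelial and macrophage RNA in the day 16 differences of Lyl1, Lmo2, Tal1 and Runx1 was not tested.

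Of 11 tested megakaryocyte and platelet genes 4 were lower and 2 higher in the 1343KO line at day 8 (median -0.27), where 42.8% of all genes were called, and 7 lower and 1 higher at day 16 (median -1.05), where 52.6% were. The summed level of the list at day 8 was 29.7 to 31.4 FPKM in the 1343KO line and 33.5 to 35.4 FPKM in WT. Itga2b marks early blood progenitors and platelets. It was at 0.434 and 0.250 FPKM in the 1343KO line at day 8 and 4.84 and 8.14 FPKM in WT (-2.45 ± 0.43, limma adjusted p = 0.00141). Plek (-1.81 ± 0.22) and Clec1b (-2.28 ± 0.39), both expressed in platelets, were lower with it. Kit, a receptor of progenitors and mast cells, was the only 1 of 10 mast cell genes tested, and it was higher in the 1343KO line, at 20.3 and 17.2 FPKM against 12.6 and 11.7 FPKM in WT (0.59 ± 0.14, limma adjusted p = 0.00748; 0.0569 without 1343KO replicate 1). The mast cell genes Cpa3, Fcer1a, Cma1, Tpsab1 and Tpsb2 were listed at 0 in all libraries. Of 11 tested trophoblast markers, a lineage that also expresses Gata2, 1 was lower and 7 higher in the 1343KO line at day 8 (median 1.59), and 2 lower and 7 higher at day 16 (median 2.25). Their summed level was 208 to 214 FPKM in the 1343KO line at day 16 and 109 to 124 FPKM in WT, and their part in the Gata2 level was not tested. Of 10 markers of neurons that use Gata2 and Tal1, 3 were tested, with 1 higher and 0 lower at day 8.

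**Figure D4:**
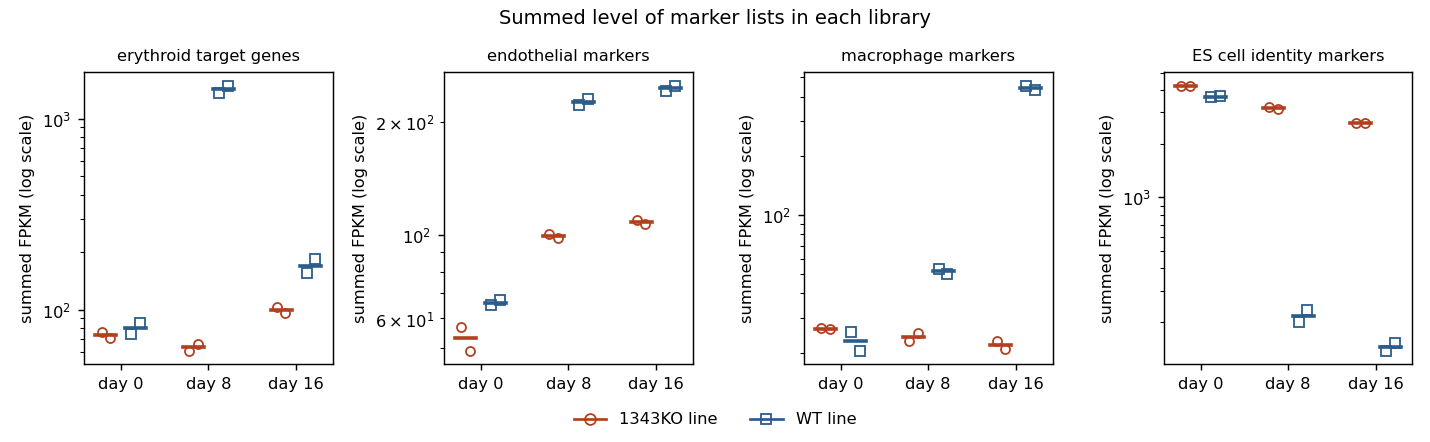
Summed FPKM (vertical axes, log scale) of the erythroid, endothelial, macrophage and ES cell identity genes in each library by day; circles are 1343KO libraries, squares WT libraries, and bars the mean of 2. The erythroid sum peaks in WT at day 8 at 1355 to 1487 FPKM, the macrophage sum in WT at day 16 at 434 to 455 FPKM, and the ES cell sum is at least 2611 FPKM in every 1343KO library.

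The genes most like each factor across the 12 libraries were found by Pearson correlation of log2(FPKM + 1), as a description of libraries that share line and day. For Gata1 they were Plppr5 (0.985), Angpt4 (0.976) and Hemgn (0.975), the last a nuclear protein of blood progenitors. Those of Klf1 included Hemgn (0.984) and Epb42 (0.973), which encodes a red cell membrane protein. Nfe2 was nearest to Angpt4 (0.990), Hemgn (0.975) and Slc28a2 (0.967), and Gfi1b to March10 (0.980), Hemgn (0.970) and Epb42 (0.956). Hemgn was thus among the nearest 3 for 4 of the factors. Tal1 was nearest to Slf2 (0.973), Hoxb6 (0.971) and Slc13a4 (0.971), Lmo2 to Smad1 (0.978), Arhgap33 (0.971) and Map3k3 (0.971), and Lyl1 to Tspan4 (0.990), Lpgat1 (0.989) and Usp47 (0.989). Runx1 was nearest to Smim7 (0.945), St6galnac6 (0.936) and Aldh5a1 (0.916), and Gata2 to Chst8 (0.936), Adam8 (0.869) and Lztfl1 (0.860). Among themselves Gata1, Klf1, Nfe2, Gfi1b and Tal1 correlated at 0.908 to 0.968 in their 10 pairs, values that rest on the 2 WT day 8 libraries, the only ones in which all 5 were high. Gata2 correlated with the other 8 at 0.129 to 0.453 and Runx1 at 0.180 to 0.681.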

How the data were processed

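The 12 poly(A) libraries comprise the 1343KO line and WT at days 0, 8 and 16 (2 per group), assigned from the title, genotype and time labels. Levels were used as FPKM per gene, the unit deposited by the authors; per the submitters' processing notes, Cufflinks 2.1.1 and build GRCm38 (mm10) were used. Aligner, annotation and strand setting: not given in the sources used here. Of the gene identifiers, 99.9% are in GENCODE M21, and 98.7% of these have the same coordinates there; positions are counted from 1. FPKM rests on an estimated division of reads between overlapping or near-identical genes and moves with the share of RNA that other genes take. An exact 0 may be a failed estimate and is given as listed at 0.

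Depth was recovered from the smallest steps in FPKM of transcripts of 1500 nt or longer, assuming fragments of 200 nt; 86.1% to 88.8% of these values were whole to within 5%. The estimate is approximate and was used for description only. The labels do not say whether replicates were separate cultures: p-values cover the spread between these libraries and no more. Replicate numbers did not pair the samples.

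Genes reaching 1 FPKM in 2 or more libraries (16289) were modelled as log2(FPKM + 1), a pseudocount of 1, by limma 3.58.1 (R 4.3.3) with a mean for each group, a variance trend and 6 residual degrees of freedom. Tests were two-sided in 10 contrasts, with Benjamini-Hochberg adjustment over all genes in each. Since 2 against 2 libraries allow no exact permutation p below 0.333, calls depend on a spread shared across genes and groups. The code was tested on simulated data. The 9 genes and 13 lists (203 of 208 entries in the table, some in more than 1 list, the 9 factors not counted in them) were chosen with earlier results of these data known. From each list, up to 4 called genes with the smallest p could be named, a few fixed genes (Hbb-bh1, Kit, Cdh5, Ldb1 and others) whatever their p, and for each factor its 3 most correlated genes, without unnamed gene models and small RNAs. The values of 1 gene named by this rule are not reported here. Rhd, Hba-a1 and Hba-a2, and T and Eomes between the lines at day 8, were named after their values were seen. The alternatives tried were a 0.1 pseudocount, omitting the filter, requiring an average of 5 FPKM, scaling by median of ratios or to TPM, a block for the replicate number, fitting only the groups compared, and dropping each library in turn. Python 3.11.15 with pandas 2.3.3, numpy 2.4.6 and, for figures, matplotlib 3.10.9 was used.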

Additional observations from a re-analysis of the deposited data

Results flagged for a closer look

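The change over time differed between the lines for most of the factors, by a direct test of that difference (1343KO minus WT, log2(FPKM + 1), limma with Benjamini-Hochberg adjustment). Of all genes, 28.3% were called from day 0 to 8 and 16.7% from day 8 to 16. Gata1, Klf1 and Gfi1b passed the filter by WT day 8 libraries alone, and Nfe2, Tal1 and Lyl1 by WT libraries of days 8 and 16 alone. In the 1343KO line they stayed at or under 0.766 FPKM, where a fall could hardly be measured. Their calls thus say little beyond their values. From day 0 to day 8 the differences in change were -2.77 ± 0.38 (SE) for Nfe2, -2.43 ± 0.31 for Gata1, -2.42 ± 0.28 for Tal1, -2.36 ± 0.47 for Lmo2, -2.26 ± 0.32 for Klf1, -1.65 ± 0.37 for Gfi1b and -1.50 ± 0.29 for Lyl1, with adjusted p of 0.000344 to 0.00989. With a pseudocount of 0.1 the calls of Lyl1 (limma adjusted p = 0.163) and Gfi1b (0.0566) ended. For Runx1 it was 1.21 ± 0.33 (limma adjusted p = 0.0222), the opposite direction. The call of Runx1 ended without 1343KO day 0 replicate 1 (0.0634), WT day 0 replicate 1 (0.0731), 1343KO day 8 replicate 2 (0.0703) or WT day 8 replicate 1 (0.0787).

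From day 8 to day 16 the differences in change were 2.42 ± 0.38 for Nfe2, 2.20 ± 0.32 for Klf1, 2.06 ± 0.31 for Gata1, 1.70 ± 0.47 for Lmo2, 1.55 ± 0.37 for Gfi1b and 1.47 ± 0.28 for Tal1, with limma adjusted p of 0.00213 to 0.0363. Those of Lmo2 and Gfi1b are the least firm. With a pseudocount of 0.1 the calls of Gata1 (limma adjusted p = 0.089) and Tal1 (0.093) ended too, as did that of Gfi1b (0.153). The call of Gfi1b ended without 1343KO day 8 replicate 1 (0.0506) or 2 (0.0598), WT day 8 replicate 2 (0.0535), 1343KO day 16 replicate 1 (0.0671) or WT day 16 replicate 1 (0.0558), and that of Lmo2 under 14 alternatives (0.0505 to 0.115).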

How the results depend on the processing

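The 41 calls of factors were recomputed under the alternatives, 743 values in all; every one kept its direction, 703 kept the call and 40 lost it, and 29 of the 41 calls held throughout. These were the day 8 differences of the 7 factors other than Runx1 and Gata2, among others, each under the alternatives in which its gene was tested. Gata1, Klf1, Nfe2, Gfi1b, Tal1 and Lyl1 passed the filter only by WT libraries of day 8, or of days 8 and 16. That their calls kept direction thus says little beyond their values. With a mean of at least 5 FPKM, Lmo2 alone was tested, so the counts of factors called were 0 at day 0, 1 at day 8 and 1 at day 16 between the lines, 1 and 0 in WT for days 0 to 8 and 8 to 16, 0 and 0 in the 1343KO line for day 8 and day 16 against day 0, and 1 and 1 for the differences in change. On the compared groups alone, 0 factors were called at day 0 and 0 for the 1343KO line at day 8 against day 0, with Runx1 lost in both. With no filter the 1343KO count at day 8 against day 0 was 0 as well. With a pseudocount of 0.1, 2 factors were called in the 1343KO line at day 16 against day 0 (Lyl1 added, adjusted p = 0.0435) and 2 for the difference in change from day 8 to 16, where Gata1 (0.089), Tal1 (0.093), Lmo2 and Gfi1b (0.153) were lost. For the difference in change from day 0 to 8 that pseudocount called 6, with Lyl1 (limma adjusted p = 0.163) and Gfi1b (0.0566) lost. Over all genes, the compared groups alone called 0 genes between the lines at day 0 (2489 at an unadjusted p under 0.05), 2968 in WT from day 8 to 16, and in the 1343KO line 1427 at day 8 against day 0, 2246 at day 16 against day 0 and 0 from day 8 to 16 (1826 at an unadjusted p under 0.05). Leaving out 1 library at a time gave 203 to 513 genes at day 0, where all 12 libraries gave 604. In the 1343KO line it gave 2480 to 3633 genes for day 8 against day 0, 36 to 132 for day 16 against day 8 and 2906 to 4286 for day 16 against day 0, with 0 to 1 factors in the first and 1 to 2 in the last. Gata2, which did not pass, changed sign: leaving out a library gave -0.65 to 0.18 at day 0 and -0.85 to 1.19 at day 16. Ldb1 at day 8 changed sign with TPM scaling (-0.073). The cause was not tested.

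TPM scaling moved the median of all genes by -0.15 at day 8 between the lines and -0.14 for the difference in change from day 0 to 8, and the share of calls that were higher was 41.0% and 40.8% in place of 54.3% and 55.0%. Median-of-ratios scaling moved the 1343KO day 16 against day 0 median by -0.11, with 51.7% of calls higher in place of 67.9%. For day 8 against day 0 in that line the share was 52.5% by median-of-ratios and 53.5% by TPM, in place of 63.8%. The number of factors called at day 8 was 8 under both scalings.

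The replicate numbers did not pair the samples: deviations of same-numbered libraries correlated at -0.04 to 0.04 over 15 pairs of groups. With the replicate number as a block the factors called were 8 at day 8, and 6902 of all genes passed in place of 6973. The block ended 1 call, the Lmo2 difference in change from day 8 to 16.

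Depth limits the low factors most, since Gata1, Klf1, Nfe2, Gfi1b and Lyl1 had at most about 5 fragments in any 1343KO library.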

Other observations

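Other regulators of blood cells were called in both directions. Of 14 tested factors outside the 9, 5 were lower and 4 higher in the 1343KO line at day 8, with a median log2 difference of -0.39, against 19.6% lower and 23.3% higher among all genes, and 7 were lower and 1 higher at day 16 (median -0.71), against 24.1% and 28.5%. Myb, a factor of progenitor growth, was at 8.11 and 10.1 FPKM in the 1343KO line at day 8, against 1.19 and 1.91 FPKM in WT (1.99 ± 0.20, limma adjusted p = 6.27e-05), and it was higher again at day 16 (2.69 ± 0.20). Bcl11a, a repressor of embryonic globins, was higher in the 1343KO line at day 8 (1.45 ± 0.24), at 2.24 and 3.33 FPKM against 0.154 and 0.633 FPKM in WT. Ikzf1 (-1.39 ± 0.20), a lymphoid factor, and Mecom (-1.40 ± 0.25), a stem cell factor, were lower. Spi1, the macrophage factor PU.1, was listed at 0 and at 0.176 FPKM in the 1343KO line at day 16, against 4.91 and 6.34 FPKM in WT (-2.60 ± 0.37, limma adjusted p = 0.000286), and Meis1 (-1.61 ± 0.23) and Cebpa (-1.99 ± 0.35) were lower with it. In WT all 15 macrophage markers were higher at day 16 than at day 8, where 14.1% of all genes rose and 13.5% fell. Among them were C1qc (5.17 ± 0.21) and Cx3cr1 (4.33 ± 0.19). Only in the WT day 16 libraries did all 15 reach 1 FPKM. The filter thus favoured a rise, and the count says little beyond their values. Kit, the stem cell factor receptor, was higher in the 1343KO line at day 16 too (0.64 ± 0.14), at 23.0 and 19.8 FPKM against 13.9 and 12.8 FPKM in WT.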
